A study of Mus musculus with 20 samples.

Results

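The genes described here are the 9 retinoid transport and metabolism genes *Rbp4*, *Ttr*, *Lrat*, *Rdh11*, *Rdh16*, *Dhrs3*, *Adh7*, *Aldh1a1* and *Cyp26a1*, which were picked by symbol from the 54532 genes of the count table. All 9 passed the filter on low counts that left 12289 genes for testing. The samples were livers of 20 male C57BL/6 mice, with 1 RNA-seq library per mouse and 5 mice in each of 4 groups. All mice had first spent 12 weeks on a high-fat diet (HFD) and then underwent Roux-en-Y gastric bypass (RYGB, a rerouting of the gut that also leaves a small gastric pouch) or a sham operation. For the 8 weeks after surgery they received chow or HFD, which gave the groups RYGB HFD, Sham HFD, RYGB Chow and Sham Chow. No group had been spared the preoperative HFD, and no group was left without an operation. According to the methods of the study, Sham HFD mice were heavier than the mice of every other group, so in each comparison with Sham HFD the surgery or diet and the body weight cannot be told apart.

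The liver is the body's main store of vitamin A. Hepatocytes take up retinoids from the diet and secrete retinol bound to retinol-binding protein (RBP4), which circulates in a complex with transthyretin (TTR), while stellate cells hold the reserve as retinyl esters made by lecithin retinol acyltransferase (LRAT). Alcohol and short-chain dehydrogenases (ADH7, RDH11, RDH16, DHRS3) convert retinol and retinal into each other, retinaldehyde dehydrogenases such as ALDH1A1 oxidize retinal to retinoic acid, and CYP26A1 breaks retinoic acid down. Retinoic acid acts through nuclear receptors that bind DNA at pairs of short half-sites, and *Cyp26a1* is a textbook target of these receptors.

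Because the retinoic acid receptor is known to bind direct repeats of half-sites, the promoters of the members were searched for that motif, and the sequences below are shown for the member that holds one and for 2 dehydrogenases whose RYGB HFD values lay below those of Sham HFD. Each line gives 250 bases upstream of a RefSeq transcript start (build GRCm38.p6), written 5′ to 3′ on the strand of the gene, which is the plus strand for all 3 genes. *Cyp26a1* (chr19:37697558-37697807) has its direct repeat with the spacer in capitals, *Rdh16* (chr10:127800903-127801152) has a single half-site in capitals, and the windows of both RefSeq starts of *Aldh1a1* (chr19:20492333-20492582 and chr19:20601718-20601967) have no match.
Cyp26a1: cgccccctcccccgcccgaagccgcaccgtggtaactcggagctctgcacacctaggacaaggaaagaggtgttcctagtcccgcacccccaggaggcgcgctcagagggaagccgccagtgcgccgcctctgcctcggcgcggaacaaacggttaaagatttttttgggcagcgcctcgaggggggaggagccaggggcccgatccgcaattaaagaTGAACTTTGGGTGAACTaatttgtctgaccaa
Rdh16: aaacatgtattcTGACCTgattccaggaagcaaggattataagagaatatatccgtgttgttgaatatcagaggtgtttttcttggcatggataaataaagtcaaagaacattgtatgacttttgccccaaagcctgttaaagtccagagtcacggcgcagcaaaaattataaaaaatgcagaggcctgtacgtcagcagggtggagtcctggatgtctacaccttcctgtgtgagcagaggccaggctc
Aldh1a1, upstream start: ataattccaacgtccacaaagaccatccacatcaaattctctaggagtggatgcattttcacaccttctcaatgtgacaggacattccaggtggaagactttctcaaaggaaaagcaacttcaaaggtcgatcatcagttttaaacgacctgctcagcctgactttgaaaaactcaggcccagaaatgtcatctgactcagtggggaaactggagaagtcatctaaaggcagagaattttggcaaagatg
Aldh1a1, downstream start: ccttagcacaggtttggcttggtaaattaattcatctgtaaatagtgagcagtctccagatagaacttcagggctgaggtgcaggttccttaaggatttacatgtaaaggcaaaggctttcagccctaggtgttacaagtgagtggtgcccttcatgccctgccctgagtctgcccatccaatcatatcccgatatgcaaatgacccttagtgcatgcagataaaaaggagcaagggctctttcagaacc

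The half-sites searched were AGGTCA and AGTTCA on both strands, and a direct repeat was 2 of them in the same orientation with 5 bases between them. The *Cyp26a1* match lies from -32 to -16 relative to the start and reads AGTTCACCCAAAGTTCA on the minus strand. Of 32851 RefSeq promoter windows over all genes, 13 (0.0396%) held a direct repeat and 27.7% at least 1 half-site. RefSeq promoter windows were matched for 8 of the 9 members, 13 windows in all. Of these members 1 held a direct repeat and 4 at least a half-site, each in a single window (*Cyp26a1*, *Rdh11*, *Rdh16* and *Adh7*). The shares over all genes are of windows, so the counts of members cannot be set directly beside them. A match describes letters only and is not evidence of binding.

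Depth was 14604854 to 22537498 total counts a mouse, with a median of 19056997, and counts of single members ran from 12 (*Cyp26a1* in 1 RYGB HFD mouse) to 137894 (*Ttr* in 1 Sham HFD mouse). Levels below are CPM, which are counts relative to a mouse's total over the 12289 tested genes after scaling with edgeR's TMM factors. A fold change is a log2 ratio whose numerator is the group named second in a comparison. It is given with its standard error (SE) and the p-value of edgeR's quasi-likelihood test, adjusted over the 12289 genes. The tissue label was borne out by the hepatocyte markers (*Alb*, *Apoa1*, *Apob*, *Trf*, *Cps1*, *Hnf4a*, *Ass1*), whose sum was between 69976 and 119188 CPM. That sum was higher in RYGB HFD than in Sham HFD by 0.48 on the log2 scale and differed by -0.26 in Sham Chow vs. Sham HFD (exact permutation test, two-sided p = 0.00794 for both, the smallest possible, and 0.0499 after adjustment over 44 marker tests). With scaling by library size only, the median of all genes moved from 0.00 to 0.12 in Sham Chow vs. Sham HFD, and the split of all calls moved from 1337 higher and 1319 lower to 2279 and 554. In Sham HFD vs. RYGB HFD the same change moved it from 1050 and 971 to 542 and 1497, and in the interaction from 305 and 317 to 151 and 597, with a median of -0.13 for all genes. No member called in any comparison changed direction under that scaling. In bulk tissue, fewer cells of a type and less RNA per cell cannot be told apart.

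Per exon length, as TPM (length-scaled transcript share) over the 20 mice, the members spanned more than 3 orders of magnitude, with the secreted carriers at the top. *Ttr* was at 10488 ± 1686 TPM (mean ± SD), *Rbp4* at 5581 ± 453, *Aldh1a1* at 760.0 ± 238 and *Dhrs3* at 109 ± 12.1. *Rdh16* followed at 62.0 ± 14.98, *Rdh11* at 37.6 ± 10.8, *Adh7* at 24.9 ± 5.56, *Lrat* at 8.40 ± 2.90 and *Cyp26a1* at 4.56 ± 3.36. The ranges over mice did not overlap between *Ttr*, *Rbp4*, *Aldh1a1*, *Dhrs3* and *Rdh16*, nor between *Adh7* and *Lrat*. The neighbours *Rdh16* and *Rdh11*, *Rdh11* and *Adh7*, and *Lrat* and *Cyp26a1* did overlap.

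**Figure D1:**
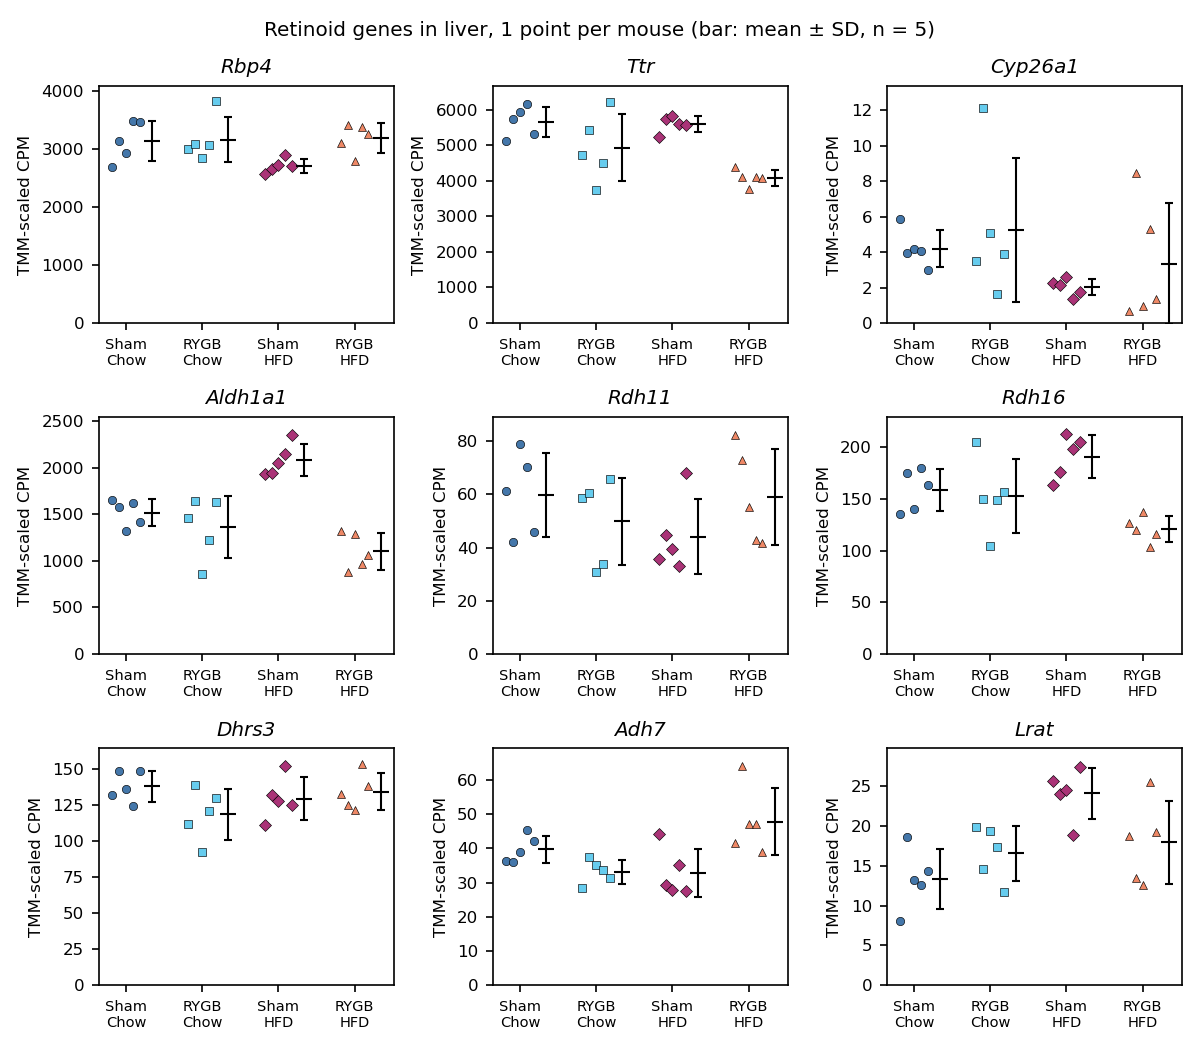
TMM-scaled CPM (linear axes from 0) of the 9 members in each of the 4 groups, 1 point per mouse, with the mean and SD of the 5 mice beside them (the lower SD of *Cyp26a1* in RYGB HFD runs below 0 and is cut at the axis). The RYGB HFD mice lie below every Sham HFD mouse for *Ttr*, *Aldh1a1* and *Rdh16*, and single high mice stand out for *Cyp26a1*.

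The comparison of Sham HFD with RYGB HFD asks how surgery alters the liver while the mice stay on HFD, and it moved more members than any other. *Aldh1a1*, *Rdh16* and *Ttr* were lower and *Adh7* was higher in RYGB HFD, so 4 of the 9 members passed an adjusted p under 0.05, while 16.4% of all tested genes did (8.54% higher, 7.9% lower). The median fold change of the members was 0.05, beside 0.01 over all tested genes. All 5 RYGB HFD mice lay below all 5 Sham HFD mice for 3 of the 9 members (*Aldh1a1*, *Rdh16*, *Ttr*), where 14.7% of all tested genes did not overlap in either direction. The comparison Sham Chow vs. Sham HFD below uses the same Sham HFD mice, so the 2 sets of values are not independent.

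On chow the same question gave no call. In Sham Chow vs. RYGB Chow, 0 of the 9 members passed in edgeR's test, and 0.057% of all tested genes did (0.0488% higher, 0.00814% lower). At an unadjusted p under 0.05 there was 1 member (*Dhrs3*), beside 10.8% of all genes. DESeq2 and limma-voom also called 0 members and had 2 each at an unadjusted p under 0.05. The groups overlapped for each of the 9 members, while 1.33% of all genes did not overlap. The members' median was -0.15, against 0.00 over all genes.

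Diet was compared within each operation. In Sham Chow vs. Sham HFD, 2 of the 9 members rose (*Lrat* and *Aldh1a1*), while 21.6% of all tested genes passed (10.9% higher, 10.7% lower), and the medians were -0.09 for the members and 0.00 for all genes. In CPM, the groups did not overlap for 3 members (*Lrat* and *Aldh1a1* higher, *Cyp26a1* lower in Sham HFD), against 16.5% of all genes. As TPM, *Cyp26a1* did overlap there. In RYGB Chow vs. RYGB HFD 1 member rose (*Adh7*), while 3.65% of all genes passed (1.99% higher, 1.65% lower). *Adh7* was also the 1 member without overlap in CPM, against 5.05% of all genes, but it overlapped as TPM. The medians there were 0.01 for the members and 0.00 for all genes. The surgery by diet interaction, which is the diet difference in RYGB mice less that in sham mice, was called for *Adh7* (positive) and *Aldh1a1* (negative), 2 of 9 members, beside 5.06% of all genes (2.48% higher, 2.58% lower).

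**Figure D2:**
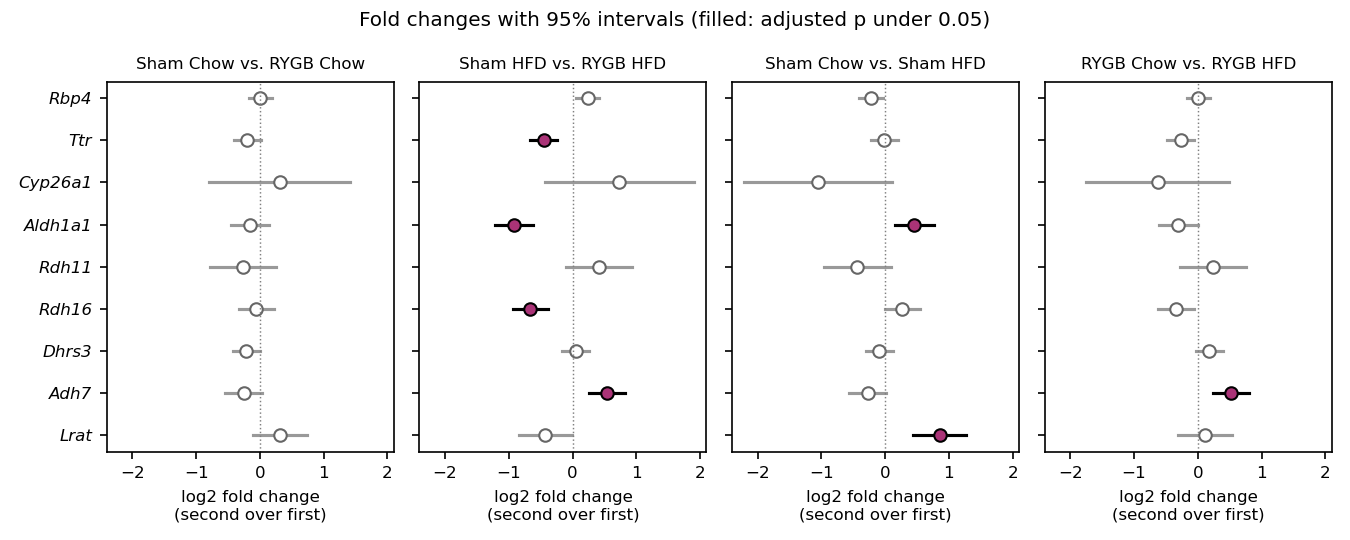
Log2 fold change of each member in the 4 comparisons (second group over the first), with the 95% interval from edgeR as a line. Filled points passed an adjusted p under 0.05, which holds for *Ttr*, *Aldh1a1*, *Rdh16* and *Adh7* in Sham HFD vs. RYGB HFD, *Aldh1a1* and *Lrat* in Sham Chow vs. Sham HFD, *Adh7* in RYGB Chow vs. RYGB HFD and for no member in Sham Chow vs. RYGB Chow. The lines of *Cyp26a1* are the widest.

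*Rbp4* (ENSMUSG00000024990, chromosome 19 from 38116629 to 38125281, minus strand, GRCm38) encodes the plasma carrier of retinol. Replicates 1 to 5 measured 2690.1, 3146, 2944, 3487 and 3476 CPM in Sham Chow and 3004, 3090.0, 2846, 3067 and 3834 CPM in RYGB Chow. In Sham HFD they measured 2570.4, 2652, 2723, 2903 and 2715 CPM, and in RYGB HFD 3105, 3411, 2798, 3389 and 3261 CPM. The Sham HFD mice were low and close together (mean 2713 ± 123, SD, n = 5), yet they overlapped with each other group. For Sham HFD vs. RYGB HFD the fold change was 0.24 (SE 0.0900, adjusted p = 0.0791) and for Sham Chow vs. Sham HFD -0.22 (SE 0.0900, adjusted p = 0.0916), neither of which passed. The former passed in 1 of 8 other settings, a model of the 2 HFD groups only (0.23, adjusted p = 0.0317), and with scaling by library size only it was 0.14 (adjusted p = 0.236). The latter was -0.08 with that scaling (adjusted p = 0.469). The estimates on chow, 0.01 for surgery, and in RYGB mice, 0.01 for diet, had 95% intervals of -0.18 to 0.20 and -0.18 to 0.20.

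*Ttr* (ENSMUSG00000061808, chromosome 18 from 20665280 to 20674321, plus strand) encodes transthyretin, which holds the RBP4 complex in the circulation and also carries thyroid hormone. The Sham HFD mice measured 5229, 5730.4, 5824, 5580.2 and 5568 CPM and the RYGB HFD mice 4381, 4107, 3760.4, 4097 and 4076 CPM, with a gap between the groups. Sham Chow mice measured 5117, 5740.4, 5918, 6145 and 5317 CPM and RYGB Chow mice 4724, 5437, 3739.8, 4495 and 6220.5 CPM, a wider spread. *Ttr* fell in RYGB HFD relative to Sham HFD, with a log2 fold change of -0.45 (SE 0.102, adjusted p = 0.00412). In RYGB Chow vs. RYGB HFD the estimate was -0.27 (SE 0.102, adjusted p = 0.15). Without RYGB Chow replicate 3, the lowest mouse of its group in CPM but not in TPM, it was -0.36 with an adjusted p of 0.0279. Diet in sham mice gave -0.02 (95% interval -0.23 to 0.20), and the interaction, -0.25 (adjusted p = 0.326), did not pass.

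The 2 carriers did not keep their proportion. Per exon kilobase, the amount of *Rbp4* transcript per *Ttr* transcript, a quantity chosen after the values were seen and given without a test, was 0.434, 0.409, 0.413, 0.459 and 0.431 in the 5 Sham HFD mice and 0.626, 0.734, 0.657, 0.731 and 0.706 in the 5 RYGB HFD mice. It was 0.464, 0.484, 0.439, 0.501 and 0.577 in Sham Chow and 0.562, 0.502, 0.672, 0.603 and 0.544 in RYGB Chow. Group means were 0.691 ± 0.0474 (SD) in RYGB HFD, 0.577 ± 0.0645 in RYGB Chow, 0.493 ± 0.0524 in Sham Chow and 0.429 ± 0.0202 in Sham HFD. The 2 HFD groups lay at opposite ends without overlap, while the means of both chow groups lay between them and their ranges overlapped with each other and with a neighbouring HFD group. Over the 20 mice the log2 CPM of *Rbp4* and *Ttr* had a Pearson r of 0.02, which was 0.64 after the group means were removed, so within groups the mice that were high in one tended to be high in the other.

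**Figure D3:**
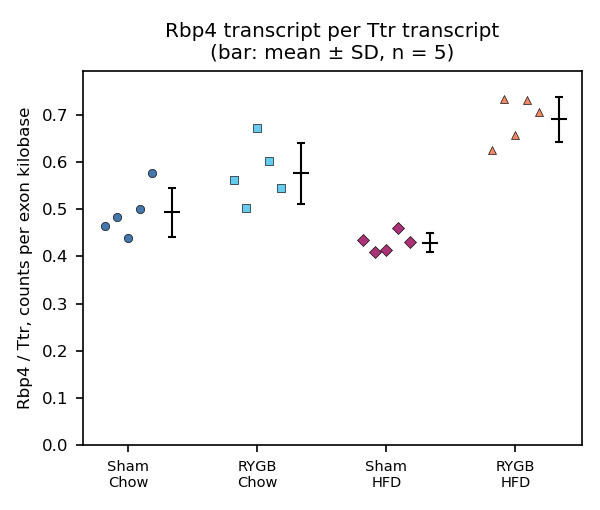
*Rbp4* transcript per *Ttr* transcript (ratio of counts per exon kilobase, linear axis from 0), 1 point per mouse, with the mean and SD of the 5 mice of each group. Sham HFD lies from 0.409 to 0.459 and RYGB HFD from 0.626 to 0.734.

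*Lrat* (ENSMUSG00000028003, chromosome 3 from 82892579 to 82903973, minus strand) encodes the enzyme that esterifies retinol for storage. Sham Chow mice measured 8.06, 18.6, 13.3, 12.6 and 14.4 CPM and Sham HFD mice 25.6, 24.0, 24.5, 18.9 and 27.4 CPM. RYGB Chow mice measured 19.9, 14.5, 19.4, 17.4 and 11.7 CPM and RYGB HFD mice 18.8, 13.5, 12.6, 25.6 and 19.3 CPM. Every Sham HFD mouse lay above every Sham Chow mouse, and the difference was 0.85 (SE 0.202, adjusted p = 0.00508). For surgery on HFD the estimate was -0.43 (SE 0.199, adjusted p = 0.149), for diet in RYGB mice 0.11 (adjusted p = 0.828), and for the interaction -0.74 (adjusted p = 0.137), none of which passed.

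In liver, *Lrat* is known as a stellate cell gene, and the stellate markers moved beside it. The summed level of 11 stellate markers (*Des*, *Reln*, *Ngfr*, *Colec10*, *Ecm1*, *Pdgfrb*, *Hand2*, *Pth1r*, *Dcn*, *Col1a1*, *Col3a1*) ran from 249 to 345 CPM in Sham Chow, 316 to 383 in RYGB Chow, 439 to 549 in Sham HFD and 324 to 479 in RYGB HFD. In Sham Chow vs. Sham HFD 7 of the 11 rose and the sum was higher by 0.70 on the log2 scale (exact permutation test, two-sided p = 0.00794, 0.0499 adjusted over 44 marker tests), and in Sham HFD vs. RYGB HFD 4 of the 11 fell and the sum differed by -0.29 (p = 0.0635, 0.155 adjusted, exact permutation test). None of the 11 was at 0. *Lrat* per 100 CPM of this sum averaged 5.11 ± 1.02 (SD) in Sham HFD, 4.54 ± 1.10 in Sham Chow, 4.66 ± 0.735 in RYGB Chow and 4.51 ± 0.914 in RYGB HFD, and all 4 groups overlapped. Over 20 mice *Lrat* and the sum had r = 0.76 on the log2 scale, and r = 0.44 with group means removed. The part of the stellate markers in the *Lrat* difference was not tested.

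**Figure D4:**
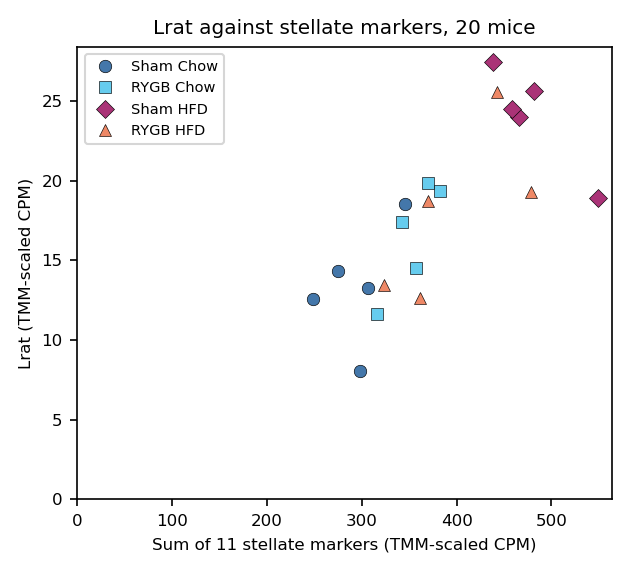
*Lrat* (TMM-scaled CPM) against the sum of 11 stellate markers (TMM-scaled CPM) in 20 mice, both axes linear from 0, with a colour and symbol for each group. The Sham HFD mice have sums from 439 to 549 CPM, and the RYGB HFD mice, at 324 to 479 CPM, overlap with them. The Sham HFD mouse with the highest sum has the lowest *Lrat* of its group, 18.9 CPM.

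*Aldh1a1* (ENSMUSG00000053279, chromosome 19 from 20492715 to 20643465, plus strand) encodes a retinaldehyde dehydrogenase. Sham HFD mice measured 1929.9, 1943, 2051, 2143 and 2348 CPM, the highest values of the series, and RYGB HFD mice 1323, 878, 1287, 961 and 1067 CPM. Sham Chow mice measured 1652, 1580.1, 1318, 1617 and 1419.9 CPM and RYGB Chow mice 1454, 1645, 859, 1224 and 1634 CPM. All 5 Sham HFD mice lay above every mouse of the 3 other groups. *Aldh1a1* fell in Sham HFD vs. RYGB HFD, with a log2 fold change of -0.92 (SE 0.146, adjusted p = 0.000218), the largest in size among the 4 members called there. It rose in Sham Chow vs. Sham HFD by 0.46 (SE 0.145, adjusted p = 0.0292). The hepatocyte marker sum moved the opposite way in both comparisons, as it did to *Ttr* and *Rdh16* in Sham HFD vs. RYGB HFD, and its part in these values was not tested.

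For *Aldh1a1* the diet difference in RYGB mice had the opposite sign, -0.31, and did not pass (adjusted p = 0.259). It differed from that in sham mice by -0.76 (SE 0.205, adjusted p = 0.035). That call was close to the threshold, since it was lost without Sham Chow replicate 3 or 5, RYGB Chow replicate 1, 2 or 5, Sham HFD replicate 3, 4 or 5, or RYGB HFD replicate 2, 4 or 5 (adjusted p up to 0.0686). The rise in sham mice was lost without Sham Chow replicate 3 or 5 or Sham HFD replicate 4 or 5 (adjusted p from 0.0549 to 0.0743). Without RYGB Chow replicate 3 the diet difference in RYGB mice was -0.44 with an adjusted p of 0.047. Of the near relatives, *Aldh1a7* was measured at 242 ± 13.3 CPM in Sham HFD and 209.7 ± 41.7 CPM in RYGB HFD, with a fold change of -0.21 (adjusted p = 0.436). *Aldh1a2* and *Aldh1a3* lay under the filter, and no stretch of 150 bases in an *Aldh1a1* transcript occurred in a transcript of another gene.

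*Rdh16* (ENSMUSG00000069456, chromosome 10 from 127801152 to 127846565, plus strand) encodes a short-chain dehydrogenase that acts on retinol and on steroids. Its group means came in the same order as those of *Aldh1a1*, with Sham HFD mice at 163, 176, 213, 198 and 205 CPM and RYGB HFD mice at 127, 120.2, 138, 104 and 116 CPM. Sham Chow mice measured 135, 176, 140.4, 179.9 and 163 CPM and RYGB Chow mice 205, 150.2, 104, 149.5 and 157 CPM. The HFD groups did not overlap and differed by -0.66 (SE 0.133, adjusted p = 0.00172). The estimates for diet were 0.27 (adjusted p = 0.153) in sham mice and -0.34 (adjusted p = 0.163) in RYGB mice, and the interaction was -0.61 (SE 0.187, adjusted p = 0.0639). Single choices moved these to the other side of the threshold. With scaling by library size only, the difference in sham mice was 0.40 (adjusted p = 0.0193) and the interaction -0.74 (adjusted p = 0.0114), DESeq2 gave the interaction an adjusted p of 0.0285, and without RYGB Chow replicate 3 the diet difference in RYGB mice was -0.46 (adjusted p = 0.0332).

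Of the stretches of 150 bases in *Rdh16* transcripts, 4.93% occurred also in *Rdh16f1*, *Rdh9* or the pseudogene *Rdh18-ps*, and how reads shared with these genes were counted was not given in the sources used here. *Rdh18-ps* overlaps 381 exon bases of *Rdh16* on the same strand and held 6 to 23 counts per mouse. Its relative *Rdh16f2* moved the other way in the same comparison, from 77.9 ± 13.7 CPM in Sham HFD to 117 ± 13.2 CPM in RYGB HFD, a change of 0.59 (SE 0.178, adjusted p = 0.026) that was lost without Sham HFD replicate 1, 2 or 3 or RYGB HFD replicate 1 or 2 (adjusted p up to 0.0712).

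*Adh7* (ENSMUSG00000055301, chromosome 3 from 138217760 to 138233382, plus strand) encodes a class IV alcohol dehydrogenase with high activity on retinol, known mainly from the lining of the stomach and upper digestive tract. RYGB HFD mice measured 41.6, 64.2, 47.2, 47.3 and 38.9 CPM, against 44.1, 29.3, 28.0, 35.3 and 27.4 CPM in Sham HFD. Sham Chow mice measured 36.2, 35.9, 38.9, 45.3 and 42.1 CPM and RYGB Chow mice 28.3, 37.4, 35.2, 33.8 and 31.3 CPM. In CPM, every RYGB HFD mouse lay above every RYGB Chow mouse and above 4 of the 5 Sham HFD mice. Sham HFD replicate 1 lay above the 2 lowest RYGB HFD mice. As TPM, which uses no TMM factor, the RYGB groups overlapped. RYGB Chow replicate 3, at 27.46 TPM, lay above RYGB HFD replicates 1 (27.30) and 5 (25.14). *Adh7* rose in Sham HFD vs. RYGB HFD by 0.55 (SE 0.136, adjusted p = 0.00833) and in RYGB Chow vs. RYGB HFD by 0.53 (SE 0.136, adjusted p = 0.0345). In sham mice the diet estimate was -0.28 (adjusted p = 0.152), and the interaction was 0.80 (SE 0.193, adjusted p = 0.02).

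The rise of *Adh7* in RYGB Chow vs. RYGB HFD was lost in a model of the 2 groups only (adjusted p = 0.0679), with scaling by library size only (adjusted p = 0.0561) and without RYGB Chow replicate 1, 3, 4 or 5 or RYGB HFD replicate 2, 3 or 4 (adjusted p up to 0.0928). The interaction was lost with scaling by library size only (adjusted p = 0.0612). Without Sham HFD replicate 1 the diet difference in sham mice was -0.40 with an adjusted p of 0.0328. The hepatocyte marker sum was also higher in RYGB HFD than in Sham HFD, and its part was not tested. Of 12 markers of stomach and gut epithelium, 7 (*Gkn1*, *Gkn2*, *Muc5ac*, *Krt13*, *Krt5*, *Cdx1*, *Cdx2*) were at 0 in all mice, and only 1 (*Fabp2*) passed the filter. The sum of the 12, nearly all of it *Fabp2*, ran from 154 to 170 CPM in Sham HFD and 65.8 to 132 CPM in RYGB HFD. The part of such tissue in the *Adh7* values was not tested.

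An antisense gene, *0610031O16Rik* (chromosome 3 from 138210716 to 138240405), overlaps *Adh7* and shares 108 exon bases with it on the opposite strand. It held 549 to 1179 counts per mouse, much like the 519 to 1233 of *Adh7*, and its fold change was 0.25 (adjusted p = 0.148) for surgery on HFD and 0.47 (adjusted p = 0.0274) for diet in RYGB mice. Over 20 mice the 2 genes had r = 0.71 on the log2 scale, and r = 0.56 with group means removed. The libraries kept strand, but the strand setting of the counting was not given in the sources used here, so reads that fall in the shared exon bases cannot be assigned to 1 of the 2 genes with certainty. These are 108 of the 3787 exon bases of *Adh7*.

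*Rdh11* (ENSMUSG00000066441, chromosome 12 from 79174337 to 79192293, minus strand) encodes a retinal reductase of the endoplasmic reticulum. Mice measured 61.3, 42.1, 78.8, 70.5 and 45.9 CPM in Sham Chow and 58.7, 60.5, 30.7, 33.97 and 65.8 CPM in RYGB Chow. They measured 35.5, 44.8, 39.5, 33.0 and 67.9 CPM in Sham HFD and 82.3, 73.1, 55.3, 42.9 and 41.7 CPM in RYGB HFD. All groups overlapped, and no comparison passed, with estimates of 0.42 (adjusted p = 0.269) for surgery on HFD and -0.43 (adjusted p = 0.218) for diet in sham mice. The intervals were -0.10 to 0.94 and -0.95 to 0.08, so differences of this size could not be told from the spread with 5 mice a group. The spread lay within the groups, where the SD of log2 CPM was 0.438, above that of 90.5% of tested genes (median 0.205).

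That spread was shared with other genes. *Gm3571* (r = 0.88) and *Lss* (r = 0.86), which encodes the cholesterol synthesis enzyme lanosterol synthase, were the 2 genes most like *Rdh11* over the 20 mice. With group means removed, the highest r among 12288 genes were 0.95 with *Lss* and 0.94 with *Dhcr7*, which encodes the last enzyme of cholesterol synthesis, a ranking chosen after the values were seen. *Lss* measured 39.6, 34.2, 55.4, 61.0 and 38.7 CPM in Sham Chow and 45.1, 51.1, 25.8, 31.6 and 45.5 CPM in RYGB Chow. It measured 33.97, 38.7, 33.5, 28.8 and 58.2 CPM in Sham HFD and 90.1, 76.9, 69.9, 46.0 and 45.5 CPM in RYGB HFD. In every group the mouse lowest in *Lss* was also the lowest in *Rdh11*, and in both HFD groups the highest mouse was the same. *Lss* rose in Sham HFD vs. RYGB HFD by 0.76 (adjusted p = 0.0254), whereas *Rdh11* did not pass there. Points of the same mouse share a library, and no p is given for these correlations.

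**Figure D5:**
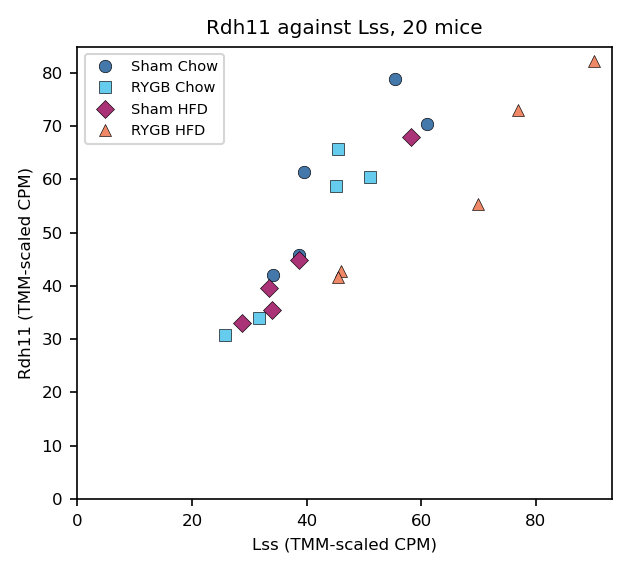
*Rdh11* against *Lss* (both TMM-scaled CPM, linear axes from 0) in 20 mice, with a colour and symbol for each group. Mice high in one gene are high in the other in all 4 groups (r = 0.86 on the log2 scale), and 3 RYGB HFD mice have the highest *Lss* of the series.

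*Dhrs3* (ENSMUSG00000066026, chromosome 4 from 144892827 to 144928209, plus strand) encodes a retinal reductase that returns retinal to retinol. Mice measured 132, 149, 136, 124 and 149 CPM in Sham Chow and 112, 139, 92.4, 121 and 129.8 CPM in RYGB Chow. They measured 111, 132, 128, 152 and 125 CPM in Sham HFD and 133, 125, 121, 154 and 138 CPM in RYGB HFD. The groups overlapped throughout. Its largest difference, in Sham Chow vs. RYGB Chow, was -0.22 (SE 0.101, adjusted p = 0.447), and the other 3 estimates ran from -0.09 to 0.18.

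*Cyp26a1* (ENSMUSG00000024987, chromosome 19 from 37697798 to 37701536, plus strand) encodes the cytochrome P450 that clears retinoic acid and carries the direct repeat printed above. Sham Chow mice measured 5.84, 3.93, 4.16, 4.07 and 2.97 CPM and Sham HFD mice 2.26, 2.13, 2.58, 1.38 and 1.75 CPM, lower in every mouse. As TPM these groups overlapped, with Sham Chow replicate 5 at 3.16 and Sham HFD replicate 3 at 3.45. RYGB Chow mice measured 3.49, 12.1, 5.05, 1.61 and 3.91 CPM and RYGB HFD mice 0.653, 8.49, 0.980, 5.32 and 1.33 CPM. Among RYGB mice, RYGB Chow replicate 2 and RYGB HFD replicates 2 and 4 stood far above the rest of their groups, whereas the other 3 RYGB HFD mice were the lowest of the series. The SD of log2 CPM within groups was 0.828, above that of 99.1% of tested genes. Counts of 12 to 225 per mouse lie behind these values.

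The *Cyp26a1* difference in Sham Chow vs. Sham HFD was -1.05 (SE 0.556, adjusted p = 0.181) in the model of all groups and -1.05 with an adjusted p of 0.00599 in a model of these 2 groups only, which leaves the RYGB mice out of the estimate of the spread. The other estimates depended on single mice. Surgery on HFD gave 0.74 (SE 0.560, adjusted p = 0.403), which was 0.02 without RYGB HFD replicate 2. Diet in RYGB mice gave -0.63 (adjusted p = 0.575), which was -0.05 without RYGB Chow replicate 2 and -1.34 without RYGB HFD replicate 2. Surgery on chow gave 0.31 (adjusted p = 0.883), and -0.26 without RYGB Chow replicate 2, so its sign rested on that mouse.

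In CPM, RYGB Chow replicate 3 stood at the low end of its group for 6 of the 9 members (*Rbp4*, *Ttr*, *Aldh1a1*, *Rdh11*, *Rdh16*, *Dhrs3*). That was more than any other mouse, and it was the highest for none. Its TMM factor, 1.13, was the highest of the series. As TPM, which uses no such factor, this mouse was the lowest for *Aldh1a1* and *Rdh16* only and the highest for *Rbp4*, *Adh7* and *Lrat*. Its hepatocyte marker sum was 73225 CPM, also the lowest of the group, while the other 4 mice ran from 84462 to 119188. Its stellate sum was the highest of the group at 383 CPM.

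By the same measure of likeness (Pearson r of log2 CPM over the 20 mice, given without p, as the samples are in 4 groups), the 2 genes most like each of the other members were as follows. *Rpl31* (0.89) and *Atraid* (0.87) were most like *Rbp4*, and *Gsta3* (0.91) and *Ndufa10* (0.89) most like *Ttr*. *Lamp1* (0.92) and *Dynlt3* (0.91) followed *Aldh1a1*, and *4931406C07Rik* (0.90) and *Apmap* (0.90) followed *Rdh16*. For *Adh7* they were *Sspo* (0.86) and *Clk4* (0.82), for *Lrat* *Eml6* (0.83) and *Lamb1* (0.82), for *Dhrs3* *Psen2* (0.80) and *Anp32a* (0.77), and for *Cyp26a1* *Stx5a* (0.73) and *Trappc2l* (0.72). Among the 36 pairs of members, r was highest for *Aldh1a1* with *Rdh16* (0.86, and 0.66 with group means removed), followed by *Ttr* with *Aldh1a1* (0.78, and 0.62) and *Ttr* with *Rdh16* (0.72, and 0.45), the members that were lower in RYGB HFD.

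The wider pathway was described by lists of 60 further genes, of which 44 were tested. In Sham HFD vs. RYGB HFD 7 rose and 7 fell, while 16.4% of all tested genes passed. In Sham Chow vs. Sham HFD 5 rose and 7 fell, beside 21.6% of all genes. Among the 5 was *Rarb*, which passed the filter on low counts only through the Sham HFD mice, where it was high. In RYGB Chow vs. RYGB HFD 1 rose and 5 fell, beside 3.65%, and in Sham Chow vs. RYGB Chow 1 rose, beside 0.057%. Their median fold changes in that order were 0.08, 0.07, -0.04 and -0.03, beside 0.01, 0.00, 0.00 and 0.00 over all genes. In the interaction 2 were positive and 2 negative, beside 5.06% of all genes. Levels of these genes are given as mean ± SD of 5 mice.

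Among 10 genes of retinoid carriage and uptake, 4 were tested. *Scarb1*, a lipoprotein and carotenoid receptor, was at 198 ± 9.31 CPM in Sham HFD and 303 ± 44.9 CPM in RYGB HFD, and rose by 0.62 (adjusted p = 9.24e-05) there and by 0.62 (adjusted p = 0.000516) in RYGB Chow vs. RYGB HFD. *Fabp5*, which can carry retinoic acid to the nucleus, was at 27.6 ± 10.3 CPM in Sham Chow, 14.96 ± 5.45 CPM in RYGB Chow, 3.45 ± 0.744 CPM in Sham HFD and 17.7 ± 7.37 CPM in RYGB HFD. It fell in Sham Chow vs. Sham HFD, with a log2 fold change of -3.00 (adjusted p = 3.71e-06), and rose in Sham HFD vs. RYGB HFD by 2.36 (adjusted p = 4.1e-05).

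Of 10 genes of retinyl ester synthesis and hydrolysis, 9 were tested, and all that passed were lower. The carboxylesterase *Ces1d* was at 621 ± 77.0 CPM in RYGB Chow, 513 ± 71.7 CPM in Sham HFD and 299 ± 71.5 CPM in RYGB HFD, and fell in RYGB Chow vs. RYGB HFD, with a log2 fold change of -1.06 (adjusted p = 0.00242), and also with surgery on HFD, with -0.78 (adjusted p = 0.00537). *Ces1e* fell in Sham HFD vs. RYGB HFD (-0.46, adjusted p = 0.0182), Sham Chow vs. Sham HFD (-0.58, adjusted p = 0.00385) and RYGB Chow vs. RYGB HFD (-0.50, adjusted p = 0.0357). *Ces1f* fell in RYGB Chow vs. RYGB HFD, with -0.49 (adjusted p = 0.0297). The lipases *Lipc* (-0.47, adjusted p = 0.0083) and *Pnpla2* (-0.54, adjusted p = 0.00472) fell in Sham Chow vs. Sham HFD. Carboxylesterases of this family are similar in sequence, and how reads mapping to several of them were counted was not given in the sources used here.

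Of 19 further genes of retinol oxidation and retinal reduction, 15 were tested. *Rdh10*, a retinol dehydrogenase, was at 29.96 ± 1.23 CPM in Sham Chow, 36.0 ± 1.74 CPM in Sham HFD and 29.8 ± 2.28 CPM in RYGB HFD, so it rose in Sham Chow vs. Sham HFD by 0.26 (adjusted p = 0.00595) and fell in Sham HFD vs. RYGB HFD, with -0.27 (adjusted p = 0.00546). *Rdh9* was the 1 listed gene that passed in Sham Chow vs. RYGB Chow, from 10.3 ± 2.02 to 21.6 ± 3.41 CPM (1.08, adjusted p = 0.0222), and it rose also in Sham Chow vs. Sham HFD (0.87, adjusted p = 0.00143). It shares sequence with *Rdh16*, and its call on chow was lost in the model of the 2 groups only (adjusted p = 0.0853) and without Sham Chow replicate 1, 3, 4 or 5 (adjusted p up to 0.11). *Retsat*, a retinol saturase, fell with diet in RYGB mice (-0.97, adjusted p = 0.0041) and with surgery on HFD (-0.61, adjusted p = 0.0224). *Dhrs4* fell with surgery on HFD (-0.35, adjusted p = 0.00436), and *Adh5*, a relative of *Adh7*, in Sham Chow vs. Sham HFD (-0.35, adjusted p = 0.0363), where *Adh7* did not pass.

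Of 5 further genes of retinal oxidation, 3 were tested. *Aox1* fell in Sham HFD vs. RYGB HFD, as *Aldh1a1* did, from 162 ± 16.6 to 87.0 ± 21.3 CPM (-0.89, adjusted p = 0.000461), and in RYGB Chow vs. RYGB HFD (-0.58, adjusted p = 0.0363). The related aldehyde oxidase *Aox3* rose in Sham HFD vs. RYGB HFD, from 569.9 ± 40.2 to 907 ± 174 CPM (0.67, adjusted p = 0.00242). Of 6 genes of retinoic acid breakdown besides *Cyp26a1*, 4 were tested. *Cyp2c39*, a retinoic acid hydroxylase of mouse liver, was at 2.74 ± 0.741 CPM in Sham Chow, 8.50 ± 1.14 CPM in Sham HFD and 2.14 ± 0.601 CPM in RYGB HFD, so it rose in Sham Chow vs. Sham HFD (1.64, adjusted p = 4.94e-05) and fell in Sham HFD vs. RYGB HFD (-1.98, adjusted p = 9.45e-06). *Ugt2b1* fell in Sham Chow vs. Sham HFD, from 632 ± 140.4 to 295 ± 46.6 CPM (-1.10, adjusted p = 0.000139), and *Ugt1a1* rose in Sham HFD vs. RYGB HFD (0.43, adjusted p = 0.00102).

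The carotenoid oxygenase *Bco1*, 1 of 2 genes of carotenoid cleavage, rose in Sham HFD vs. RYGB HFD from 6.57 ± 1.11 to 9.30 ± 0.599 CPM (0.50, adjusted p = 0.0176), a call lost with scaling by library size only (adjusted p = 0.0816) and without Sham HFD replicate 3 (adjusted p = 0.0585). All 6 retinoid receptor genes were tested. *Rarb* rose in Sham Chow vs. Sham HFD, from 0.924 ± 0.246 to 2.34 ± 0.219 CPM (1.34, adjusted p = 0.0107). *Rarb* passed the filter on low counts only through the Sham HFD mice, where it was high, so this call is not support for a difference. *Rxrb* fell there, from 42.8 ± 2.67 to 34.9 ± 2.91 CPM (-0.29, adjusted p = 0.0216). *Rxra* rose in Sham HFD vs. RYGB HFD (0.29, adjusted p = 0.0245). With scaling by library size only, the calls of *Rxrb* (adjusted p = 0.274) and *Rxra* (adjusted p = 0.234) were lost.

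A list of 10 known retinoic acid target genes, 3 of which are members (*Cyp26a1*, *Dhrs3*, *Lrat*), had 7 tested. In Sham Chow vs. Sham HFD, 3 of the 7 rose (*Tgm2*, *Lrat*, *Rarb*) and none fell, beside 10.9% of all genes that rose. The median was 0.56 beside 0.00 for all genes, and *Rarb* had entered the test only through Sham HFD. In the same comparison 7 of the 11 stellate markers and 5 of 9 Kupffer cell markers rose, and their part in these values was not tested. *Tgm2*, a transglutaminase, changed by 0.56 (adjusted p = 0.00662). *Cyp26a1*, the member with the direct repeat in its promoter, had its lower values in Sham HFD in that same comparison.

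Several calls of listed genes rested on single mice or settings. In RYGB Chow vs. RYGB HFD, *Aox1* was lost without RYGB Chow replicate 1, 2, 3 or 5 or RYGB HFD replicate 2, 4 or 5 (adjusted p up to 0.0867), *Ces1e* without RYGB Chow replicate 1, 2, 4 or 5 or RYGB HFD replicate 1, 2, 4 or 5 (up to 0.0828) and *Ces1f* without RYGB Chow replicate 2, 4 or 5 (up to 0.0638). In a model of these 2 groups only all 3 were lost (0.0766 for *Aox1*, 0.0956 for *Ces1e* and 0.113 for *Ces1f*). In Sham HFD vs. RYGB HFD, *Retsat* was lost without Sham HFD replicate 3 or RYGB HFD replicate 1, 2 or 3 (up to 0.0591), *Rxra* without Sham HFD replicate 1 or 2 or RYGB HFD replicate 1 or 5 (up to 0.0662) and *Ces1e* without RYGB HFD replicate 5 (0.0545). In Sham Chow vs. Sham HFD, *Adh5* was lost without Sham Chow replicate 3, 4 or 5 or any 1 of the Sham HFD mice (up to 0.0955) and with scaling by library size only (-0.22, adjusted p = 0.0962), and *Rxrb* without Sham HFD replicate 1 or 2 (up to 0.0617).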

How the data were processed

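Poly(A) RNA of 20 mouse livers was sequenced from libraries that kept strand. The authors deposited a table of raw gene counts, made per the labels and the methods of the study with Trimmomatic 0.36, HISAT2 2.1.0 on mm10 and featureCounts 1.5.0-p3, in which 54495 of 54532 genes were paired with a symbol. The release of the annotation and the strand setting of the counting were not given in the sources used here. Total counts ran from 14604854 to 22537498 per mouse.

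Genes with at least 2 CPM in at least 3 mice (12289) were fitted with edgeR 4.0.16 (R 4.3.3; TMM scaling, 1 coefficient per group over all 20 mice, two-sided quasi-likelihood test) and p-values were adjusted by Benjamini-Hochberg over them, with a call at an adjusted p under 0.05. The study itself used DESeq2, which served here as an alternative. Correlations used log2(CPM + 0.5). Marker sums were compared by exact permutation tests. The scripts were tested on simulated data. Gene positions and exon lengths came from GENCODE M21 (GRCm38), and promoter windows from RefSeq (GRCm38.p6). Relatives were compared by transcript windows of 150 bases, since no protein table was used here.

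The 9 members and all gene lists were chosen with earlier results of these data known. The text names every member, the listed genes that passed, and the 2 genes most like each member. Groups came from the sample labels, which gave no sequencing batch, and the p-values measure the spread between these mice. Alternatives were size factors, scaling by library size only, DESeq2 1.42.0, limma-voom 3.58.1, no filter, a filter of 5 CPM, the groups compared alone, the replicate number as a block and each mouse left out in turn.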

Additional observations from a re-analysis of the deposited data

Results flagged for a closer look

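*Rbp4* in RYGB Chow replicate 5, at 3834 CPM, stood apart from the other 4 mice of its group by Dixon's criterion. Of 36 sets of a member in a group, this was the 1 that did, and about 1.8 would do so by chance at 1 in 20. As TPM, RYGB Chow replicate 5 was at 6247 and replicate 3 at 6260, so replicate 5 was not the highest mouse of its group.

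The effect of diet differed between RYGB and sham mice by edgeR's interaction test for 2 members and 4 other listed genes. The difference in log2 fold change was -0.76 for *Aldh1a1* (adjusted p = 0.035) and 0.80 for *Adh7* (adjusted p = 0.02). It was 0.53 for *Scarb1* (adjusted p = 0.0187), 3.24 for *Fabp5* (adjusted p = 0.000239), -0.88 for *Aox1* (adjusted p = 0.0217) and -1.85 for *Cyp2c39* (adjusted p = 0.00291). *Fabp5*, *Cyp2c39* and *Aox1* held in every setting tried and without each mouse, while *Scarb1* was lost with scaling by library size only (adjusted p = 0.0825).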

How the results depend on the processing

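No single called fold change of a member changed sign under an alternative. The balance of calls did change: without RYGB Chow replicate 3 the members called in RYGB Chow vs. RYGB HFD went from 1 higher (*Adh7*) to 3 lower (*Ttr*, *Aldh1a1*, *Rdh16*), and with library size only the genes called in Sham HFD vs. RYGB HFD went from 1050 higher and 971 lower to 542 and 1497. In Sham HFD vs. RYGB HFD, *Ttr*, *Aldh1a1*, *Rdh16* and *Adh7* passed in all 8 other settings and in all 20 fits without 1 mouse, as did *Lrat* in Sham Chow vs. Sham HFD. In RYGB Chow vs. RYGB HFD the 1 called member, *Adh7*, became 0 with library size only, with the 2 groups only and with the replicate block (adjusted p = 0.0558). In the interaction the count of 2 members became 1 with the replicate block, where *Aldh1a1* had an adjusted p of 0.0579. The block also ended the calls of *Ces1e* in RYGB Chow vs. RYGB HFD (adjusted p = 0.0556) and *Adh5* in Sham Chow vs. Sham HFD (adjusted p = 0.0532). Replicate numbers did not pair the mice: 5 of 30 same-numbered pairs correlated above 0.1 (r from -0.26 to 0.17), and 4 of 30 were best matched by their own number. Over all genes, Sham Chow vs. RYGB Chow went from 7 calls to 92 (DESeq2), 3 (limma-voom), 13 (no filter) and 0 (2 groups only), and RYGB Chow vs. RYGB HFD from 448 to 751 (DESeq2) and 184 (2 groups only). Without 1 mouse, members called ran from 0 to 0 in Sham Chow vs. RYGB Chow, 4 to 5 in Sham HFD vs. RYGB HFD, 1 to 3 in Sham Chow vs. Sham HFD, 0 to 3 in RYGB Chow vs. RYGB HFD and 1 to 3 in the interaction. Genes called ran from 0 (without Sham Chow replicate 3) to 15 (without RYGB Chow replicate 5), 1534 to 2197, 2009 to 2880, 244 (without RYGB HFD replicate 3) to 488 and 377 (without Sham HFD replicate 3) to 805 in the same order. The stellate marker difference ran from -0.36 to -0.22 in Sham HFD vs. RYGB HFD, 0.21 to 0.33 in Sham Chow vs. RYGB Chow, 0.64 to 0.76 in Sham Chow vs. Sham HFD and 0.08 to 0.22 in RYGB Chow vs. RYGB HFD. The cause of these changes was not tested. Depth limits *Cyp26a1* most, with 12 to 225 counts per mouse.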

Other observations

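Other marker lists moved between the same groups. The sum of the 9 pericentral hepatocyte markers was higher in RYGB HFD than in Sham HFD by 0.32 on the log2 scale (exact permutation test, two-sided p = 0.00794, 0.0499 adjusted over 44 tests). In edgeR's test 2 of the 9 rose (*Cyp2e1*, *Cyp1a2*), 2 fell (*Glul*, *Rhbg*) and 5 did not pass. The sum of the adipocyte markers was higher in RYGB HFD than in RYGB Chow by 2.45, at the same p, and was nearly all *Cfd* (8.40 ± 10.1 CPM, SD, n = 5, in RYGB HFD, with 1 mouse at 24.4), while *Adipoq*, *Lep* and *Plin1* lay under the filter. The stomach and gut list, nearly all *Fabp2*, was higher in Sham HFD than in Sham Chow by 1.32 and differed by -0.78 in Sham HFD vs. RYGB HFD, also at that p. The Kupffer cell sum was higher in Sham HFD than in Sham Chow by 0.82 (exact permutation test, p = 0.0238, 0.0873 adjusted), and 5 of its 9 markers (*Cd5l*, *Clec4f*, *Csf1r*, *C1qb*, *Adgre1*) rose there in edgeR's test. It was also higher in RYGB Chow than in Sham Chow by 0.89 (exact permutation test, p = 0.0159, 0.0776 adjusted). For the periportal, endothelial, cholangiocyte, pancreatic and red cell sums, adjusted p over the 4 comparisons was 0.0776 or higher.

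Sham HFD replicate 1 was the lowest mouse of its group for 5 members (*Rbp4*, *Ttr*, *Aldh1a1*, *Rdh16*, *Dhrs3*) and the highest for *Adh7*.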
